A study of Mus musculus with 6 samples.

Results

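The genes described here belong to a route by which calcium enters and leaves mitochondria. They are the pore of the mitochondrial calcium uniporter (Mcu) and its paralogue (Mcub), the partners Smdt1, Mcur1, Micu2 and Micu3, the exchangers Slc8b1 and Letm1, and the outer membrane channel Vdac1. The rule that picks them is a list of symbols and uses no measured value, and all 9 were found among the 52550 genes of the count table. Each passed the filter on low counts.

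RNA was sequenced from CD3+ T cells of mouse spleen with wild-type genotype, which were stimulated for 24 h by antibodies against CD3 and CD28, the trigger of the T cell receptor (TCR) and its costimulator. The control group of 3 samples received this stimulus by itself (TCR alone), and in the other 3 samples 100 ng/ml of the small molecule DMGV (dimethylguanidino valeric acid) was present (TCR+DMGV). The sample labels name DMGV, whereas the text that describes this sequencing names LNY1, a methylarginine preparation, at the same dose and time, so the identity of the compound rests on the labels. Activation is shared by both groups, and cells without activation or without antibody were not analysed here. The labels call the samples biological replicates. The strain and age of the mice of each sample are not in the labels. CD3+ T cells include CD4+ and CD8+ cells together, so in bulk RNA fewer cells of a type and less RNA per cell cannot be told apart.

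Mitochondria take up calcium when a T cell receptor signal raises it in the cytosol. In the general account it crosses the outer membrane mainly through voltage-dependent anion channels. It then passes the inner membrane through the uniporter, driven by the membrane potential, and leaves again in exchange for sodium or protons. The authors report, however, that in Jurkat T cells calcium still entered mitochondria after receptor stimulation when the uniporter pore was blocked or knocked out. In the matrix, calcium stimulates dehydrogenases that feed the respiratory chain, and uptake near the plasma membrane helps to keep calcium entry channels open in T cells.

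The counts summed to 37758725 to 43718867 per sample. On the first principal component, which held 32.2% of the variance, TCR alone replicate 3 and TCR+DMGV replicate 1 had scores of 42.1 and 42.9. They stood apart from the other 4 samples at -34.9 to -10.5. For some members the fold change without both is given too. Summed T cell markers ranged from 3130 to 3320 CPM (counts scaled by sample depth) in TCR alone and from 3310 to 3540 in TCR+DMGV, with 10 of 11 higher. B cell markers summed to 11.2 to 13.7 and 12.7 to 13.4 CPM in the same order of groups, myeloid markers to 11.3 to 16.5 and 13.0 to 15.5 CPM, and erythroid and platelet markers to 3.82 to 5.37 and 2.11 to 4.02 CPM. Of 10 myeloid markers 3 passed the filter on low counts, and 5 never exceeded 10 counts, 3 of them being at 0 throughout. Of 8 erythroid and platelet markers 4 passed, and 2 never exceeded 10 counts, 1 of them being at 0. Higher in TCR+DMGV were 2 of 6 tested B cell, 2 of 3 myeloid and 1 of 4 erythroid and platelet markers. The groups did not overlap for 2 T cell (both higher), 2 B cell (1 higher) and 2 erythroid and platelet markers (both lower). Over all genes tested, 50.6% were higher and in 8.86% the groups did not overlap. The part of these markers in the results on the calcium genes was not tested.

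The levels of the 9 genes spanned a wide range. Levels between genes are compared as FPKM, in which fragments are divided by gene length and sample depth, over all 6 samples. Vdac1, which encodes a calcium-permeable channel of the outer membrane, stood first with a mean of 84.3 FPKM (75.5 to 96.0), higher than 96.2% of the genes tested. Smdt1 followed at 27.2 FPKM (23.9 to 29.3) and Micu2 at 23.3 (20.7 to 26.7). Letm1 had a mean of 13.5 FPKM (11.5 to 15.6), Mcub 9.91 (8.36 to 12.5), Mcu 9.01 (8.19 to 9.94) and Mcur1 6.03 (5.82 to 6.25). Slc8b1 at 0.966 FPKM (0.754 to 1.17) and Micu3 at 0.51 (0.356 to 0.965) were the lowest, with 25.9% and 18.2% of the tested genes below them. Vdac1, Micu2, Mcu and Mcur1 were each separate from the gene that came next, with no overlap of samples. Over the pooled samples the ranges of the other neighbours overlapped. Within samples, Letm1 was above Mcub and Slc8b1 above Micu3 in all 6, Smdt1 above Micu2 in 5, and Mcub above Mcu in 4.

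Part of this order depends on the length each count is divided by. The leading transcript Mcu-202 has 2872 bases, while the annotated exons of the gene cover 6936. When the FPKM of all transcripts of a gene was summed instead, a measure added after the data were seen, Mcu had a mean of 22 FPKM (20.1 to 24.1) and Mcub 10.6 (8.68 to 13.0). Mcu was then above Mcub in all 6 samples with no overlap, the reverse of the order of their gene values. Vdac1 stayed first at 112 FPKM, followed by Smdt1 at 42.4, Micu2 at 31.0 and Letm1 at 27.7, and Mcur1 was at 10.0, with Mcub above it in 4 of 6 samples. Micu3 at 1.37 and Slc8b1 at 1.27 changed places, and Slc8b1 was the higher of them in 4 of 6 samples. The gate subunit Micu2 and the scaffold Smdt1 were both above Mcu in every sample on either scale, whereas the alternative gate Micu3 was below it in every sample.

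**Figure D1:**
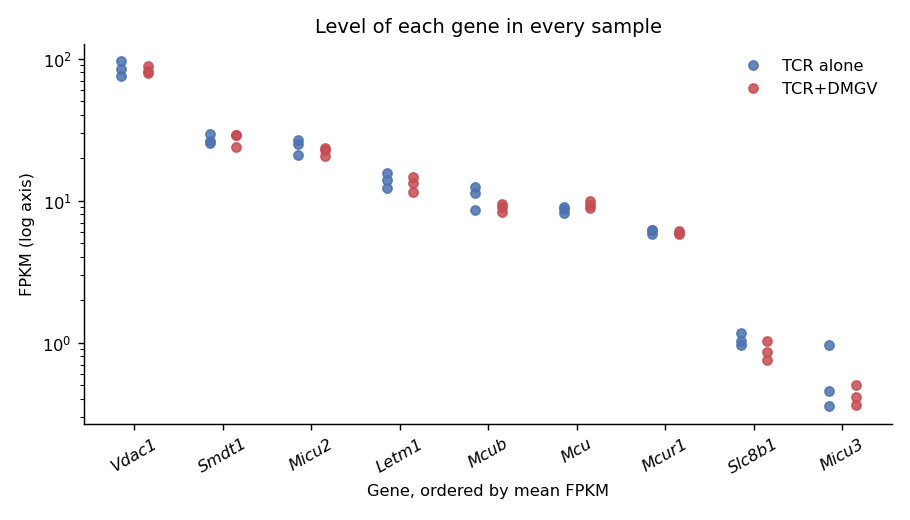
Level of each of the 9 genes in gene FPKM (log axis), 1 point per sample, with genes ordered by the mean of all 6 samples and the groups set side by side. Vdac1 lies apart at the top (75.5 to 96.0 FPKM), and Slc8b1 and Micu3 lie below the other 7 genes.

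Between the groups, no member passed the threshold of an adjusted p under 0.05 in edgeR's quasi-likelihood test, in which 2 of the 14786 genes tested (0.0135%) did. None of the 9 had an unadjusted p under 0.05 either, a level that 471 genes (3.19%) reached. DESeq2 called no member. The mean was higher in TCR+DMGV for 2 members (Mcu and Smdt1) and lower for 7, while 50.6% of all genes had a log2 fold change above 0. The median log2 fold change of the members was -0.07 and that of all genes tested 0.0024. For 1 member, Mcu, the groups were fully apart in CPM, as was the case for 1310 genes (8.86%). With 3 samples against 3, an exact permutation test cannot give a p below 0.1. The adjusted p was 0.9995 for each of the 9 genes, so intervals are given to show which sizes of change these samples leave possible.

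Mcu encodes the pore-forming subunit (ENSMUSG00000009647.13, chr10:59446984-59616692, reverse strand, GRCm38). It had 63.3, 69.0 and 69.0 CPM in TCR alone and 76.0, 69.9 and 74.7 CPM in TCR+DMGV. All TCR+DMGV samples lay above all TCR alone samples, but TCR+DMGV replicate 2 by little. The means were 67.1 ± 3.27 and 73.6 ± 3.20 CPM (SD, n = 3 each; two-sided exact permutation test, p = 0.1). The log2 fold change was 0.13 (standard error 0.08, 95% interval -0.06 to 0.32), or 1.10-fold with an interval of 0.96 to 1.25 (edgeR, unadjusted p = 0.147). On the FPKM scale the groups overlapped, with 8.19, 8.68 and 9.06 in TCR alone and 9.94, 8.83 and 9.37 in TCR+DMGV. Without TCR alone replicate 1, the lowest sample, the log2 fold change was 0.08, and without both samples that stood apart it was 0.13. Gm10322 overlaps Mcu on the other strand and had 0 counts in every sample.

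Mcub encodes the paralogue that joins the pore and lowers its conductance (ENSMUSG00000027994.14, chr3:129914960-129970206, reverse strand). Its values were 12.8, 17.2 and 18.1 CPM in TCR alone and 13.9, 13.6 and 12.7 CPM in TCR+DMGV. The TCR+DMGV samples were close together and below TCR alone replicates 2 and 3, while TCR alone replicate 1 lay among them. Means of 16 ± 2.86 and 13.4 ± 0.615 CPM (SD, n = 3 each) gave an exact permutation p of 0.3. In the edgeR fit Mcub had a log2 fold change of -0.26 (standard error 0.15, 95% interval -0.62 to 0.10), or 0.836-fold with an interval of 0.651 to 1.07 (edgeR, unadjusted p = 0.133). Leaving out TCR alone replicate 1 gave -0.42 and leaving out TCR alone replicate 3 gave -0.16. Without both samples that stood apart it was -0.19.

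The stretch that lines the mouth of the pore is shown for both genes. Both encode the acidic motif within it, whose first codon is GAC in Mcu and GAT in Mcub. The codons around the motif also differ in part. The sequences are from the coding strand of transcripts Mcu-202 and Mcub-201 of GENCODE M21 (GRCm38, reverse strand of each chromosome, written 5′ to 3′), and both lie in exon 6 of 8. Capitals mark the bases that encode the conserved acidic motif of the pore.
Mcu, chr10:59454997-59455044: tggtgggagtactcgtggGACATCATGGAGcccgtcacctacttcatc
Mcub, chr3:129916990-129917037: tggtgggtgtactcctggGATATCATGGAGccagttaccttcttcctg
Of these 48 bases, 40 are identical. The coding sequences hold 350 codons in Mcu-202 and 345 in Mcub-201. A search of each member against the other transcripts found no stretch of at least 150 bases at 95% identity between Mcu and Mcub. The search found 1 such match for a member, the stretch of exon that Micu3 shares with Fgf20.

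Smdt1 encodes the small scaffold (EMRE) that metazoan uniporters need for conductance and that ties the gate subunits to the pore (ENSMUSG00000022452.14, chr15:82338959-82349091, forward strand). It had 31.9, 31.5 and 34.6 CPM in TCR alone and 34.7, 35.5 and 29.7 CPM in TCR+DMGV. The highest and the lowest sample were both in TCR+DMGV. Its log2 fold change was 0.03 (standard error 0.11, 95% interval -0.22 to 0.27), with edgeR's unadjusted p at 0.806. Leaving out any 1 of 4 samples turned the sign, to as low as -0.02. Pheta2 overlaps the annotated span of Smdt1 on the same strand, as does the ribosomal RNA gene n-R5s41, and Pheta2 had 2 to 106 counts per sample against 1175 to 1544 for Smdt1.

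Mcur1, a regulator of uniporter assembly (ENSMUSG00000021371.5, chr13:43538393-43560191, reverse strand), was the steadiest of the 9 genes. Its CPM was 49.3, 50.6 and 45.4 in TCR alone and 45.9, 49.8 and 47.4 in TCR+DMGV, and the highest sample was 1.12 times the lowest. Between the groups the log2 fold change was -0.02 (standard error 0.09, 95% interval -0.23 to 0.18; edgeR, unadjusted p = 0.806). Leaving out TCR alone replicate 2 gave 0.01 and leaving out TCR+DMGV replicate 1 gave 0.00.

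The gate subunits bind calcium through EF hands on the side of the intermembrane space and set the calcium level at which the pore opens. Micu2 (ENSMUSG00000021973.9, chr14:57916261-57999262, reverse strand) had 86.6, 94.4 and 70.7 CPM in TCR alone and 70.5, 82.7 and 80.8 CPM in TCR+DMGV. Its lowest values, which were nearly equal, came from TCR alone replicate 3 and TCR+DMGV replicate 1, the samples that stood apart on the first component. The log2 fold change was -0.11 (standard error 0.13, 95% interval -0.40 to 0.19; edgeR, unadjusted p = 0.43). Without both of these samples it was -0.14, without TCR alone replicate 3 it was -0.21, and without TCR alone replicate 2 it was -0.02.

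Micu3, the gate subunit known mainly from the nervous system (ENSMUSG00000039478.15, chr8:40307458-40386308, forward strand), had 6.63, 2.52 and 3.12 CPM in TCR alone and 2.83, 2.58 and 3.58 CPM in TCR+DMGV. TCR alone replicate 1 lay far above the other 5 samples, which were all between 2.52 and 3.58 CPM. The log2 fold change of -0.45 (standard error 0.38, 95% interval -1.33 to 0.44; edgeR, unadjusted p = 0.272) rested on that sample, and it was 0.07 without it. Without both samples that stood apart on the first component, the log2 fold change was -0.57. In counts, TCR alone replicate 1 had 252 and the other samples 103 to 142. Fgf20 overlaps the start of Micu3 on the other strand and had 5 to 21 counts per sample, and Mir7666 had 0 to 4.

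Slc8b1 encodes the sodium/calcium/lithium exchanger NCLX, through which matrix calcium leaves (ENSMUSG00000032754.14, chr5:120511168-120534024, forward strand). It had 4.0, 3.85 and 4.45 CPM in TCR alone and 3.95, 3.04 and 3.46 CPM in TCR+DMGV. The groups overlapped by 1 sample each, TCR+DMGV replicate 1 being just above TCR alone replicate 2. Means were 4.10 ± 0.311 and 3.48 ± 0.457 CPM (SD, n = 3 each; exact permutation test, p = 0.2). The log2 fold change was -0.23 (standard error 0.18, 95% interval -0.65 to 0.19), or 0.85-fold with an interval of 0.635 to 1.14 (edgeR, unadjusted p = 0.232). Behind these values were 131 to 184 counts per sample. The log2 fold change ran from -0.34 to -0.14 with 1 sample left out, and was -0.27 without both samples that stood apart.

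Letm1 encodes an inner membrane protein that exchanges cations for protons, and whether calcium or potassium is its main substrate is debated (ENSMUSG00000005299.6, chr5:33739673-33782817, reverse strand). Its CPM was 150, 135 and 165 in TCR alone and 156, 147 and 128 in TCR+DMGV, with the groups interleaved. Its log2 fold change was -0.07 (standard error 0.11, 95% interval -0.32 to 0.19; edgeR, unadjusted p = 0.568). Without TCR alone replicate 3 it was 0.02, and without TCR+DMGV replicate 3 it was 0.01.

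Vdac1 (ENSMUSG00000020402.11, chr11:52360860-52389397, forward strand) had 220, 254 and 276 CPM in TCR alone and 256, 238 and 246 CPM in TCR+DMGV. The TCR alone samples spread around the TCR+DMGV samples on both sides. Its log2 fold change was -0.02 (standard error 0.10, 95% interval -0.25 to 0.20; edgeR, unadjusted p = 0.833). Without TCR alone replicate 3 it was 0.06, and without both samples that stood apart it was 0.03.

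**Figure D2:**
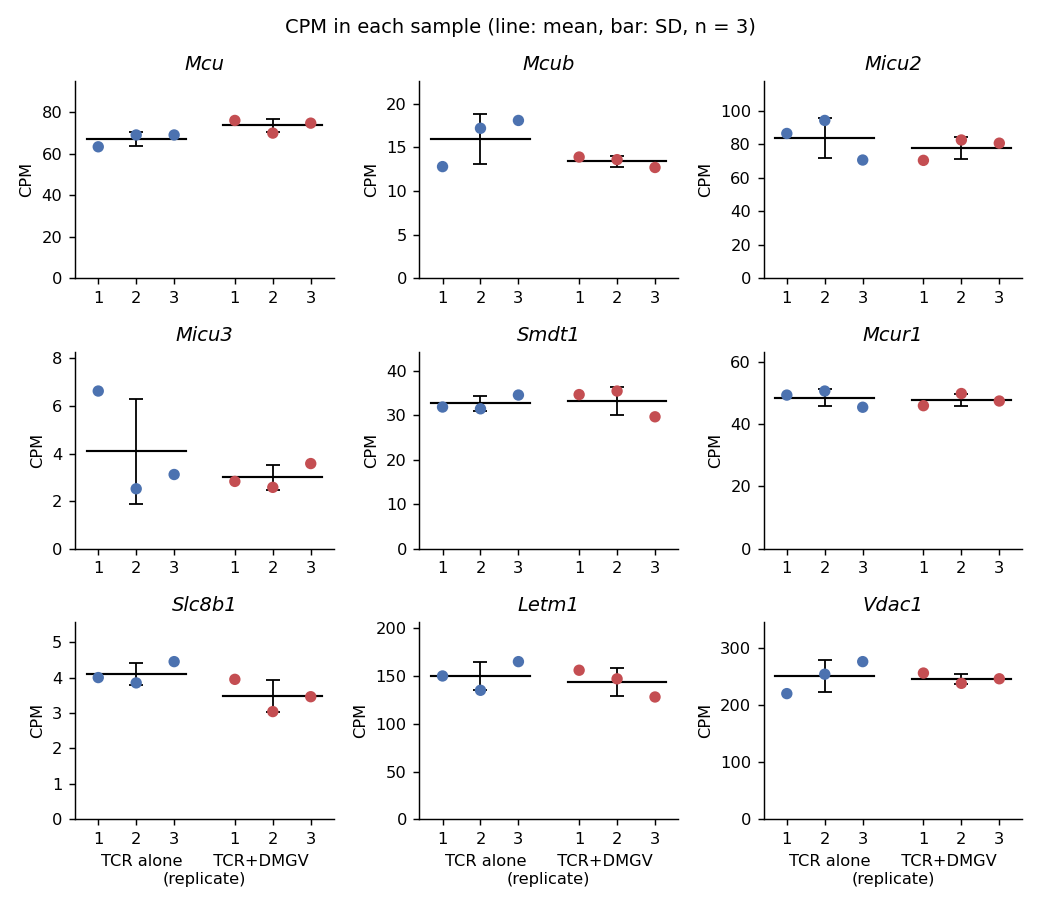
CPM of each gene in each sample (vertical axes from 0, 1 panel per gene), with the group mean as a line and the SD as a bar (n = 3). Mcu is the gene whose groups do not overlap, and in the Micu3 panel TCR alone replicate 1 at 6.63 CPM lies above the other 5 samples.

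**Figure D3:**
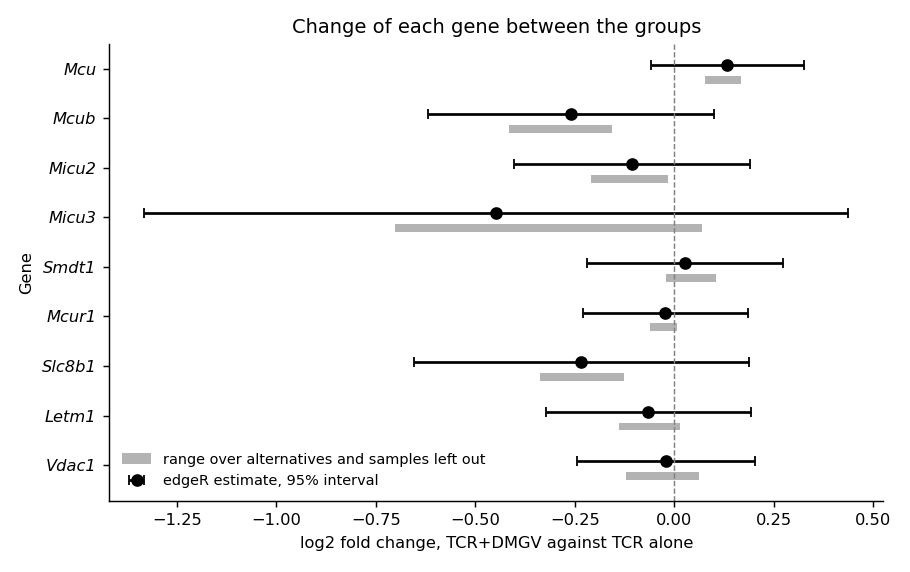
log2 fold change of each gene, TCR+DMGV against TCR alone, with edgeR's 95% interval (points and lines), and the range of the estimate over the alternative settings and the fits without 1 sample (grey bars). Every 95% interval crosses 0, the widest being that of Micu3 (-1.33 to 0.44), and the grey bars of Mcu, Mcub, Micu2 and Slc8b1 lie on 1 side of 0.

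No sample was high or low for all members. TCR alone replicate 3 was the highest sample for 4 of the 9 genes (Mcub, Slc8b1, Letm1 and Vdac1), and TCR+DMGV replicate 3 was the lowest for 3 (Mcub, Smdt1 and Letm1). The ratio of the highest to the lowest sample was 1.12 to 1.46 for 8 genes and 2.63 for Micu3. For Mcu, Mcub, Slc8b1, Letm1 and Vdac1 the sample with the highest CPM was 1 of the samples that stood apart on the first component.

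The balance between the pore and its partners was described as the gene FPKM of each partner over that of Mcu in the same sample. This measure was chosen after the values were seen and is given with no test. For Mcub the ratio was 1.06, 1.31 and 1.38 in TCR alone and 0.958, 1.02 and 0.892 in TCR+DMGV. Every TCR+DMGV sample was below every TCR alone sample. With transcript FPKM summed per gene, the ratio was 0.457, 0.565 and 0.595 against 0.424, 0.476 and 0.381, so that Mcu was the higher gene in every sample and the groups overlapped. The ratio for Slc8b1 was 0.126, 0.111 and 0.129 in TCR alone and 0.103, 0.0854 and 0.0919 in TCR+DMGV. For Vdac1 it was 9.22, 9.73 and 10.6 against 8.91, 9.0 and 8.72. For these 3 of the 8 partners the groups did not overlap in gene FPKM, and for the other 5 they did. With summed transcript FPKM the groups were apart for 1 of the 8, Slc8b1 (0.0703, 0.0569 and 0.0637 against 0.0511, 0.0499 and 0.055). A gene FPKM ratio lower in every TCR+DMGV sample was found for 1884 of 14785 genes (12.7%), and the ratio of every gene contains the Mcu value of its sample. Mean ratios were 1.25 ± 0.169 and 0.958 ± 0.0652 for Mcub, 0.122 ± 0.00964 and 0.0935 ± 0.00907 for Slc8b1, and 9.85 ± 0.694 and 8.88 ± 0.144 for Vdac1 (SD, n = 3 each). The mean ratios of Micu2 were 2.82 and 2.39, those of Smdt1 3.14 and 2.92, those of Letm1 1.61 and 1.40, and those of Mcur1 0.709 and 0.637. That of Micu3 was 0.0698 and 0.0456, and the log2 of their quotient was -0.61 with all samples but -0.01 without TCR alone replicate 1.

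**Figure D4:**
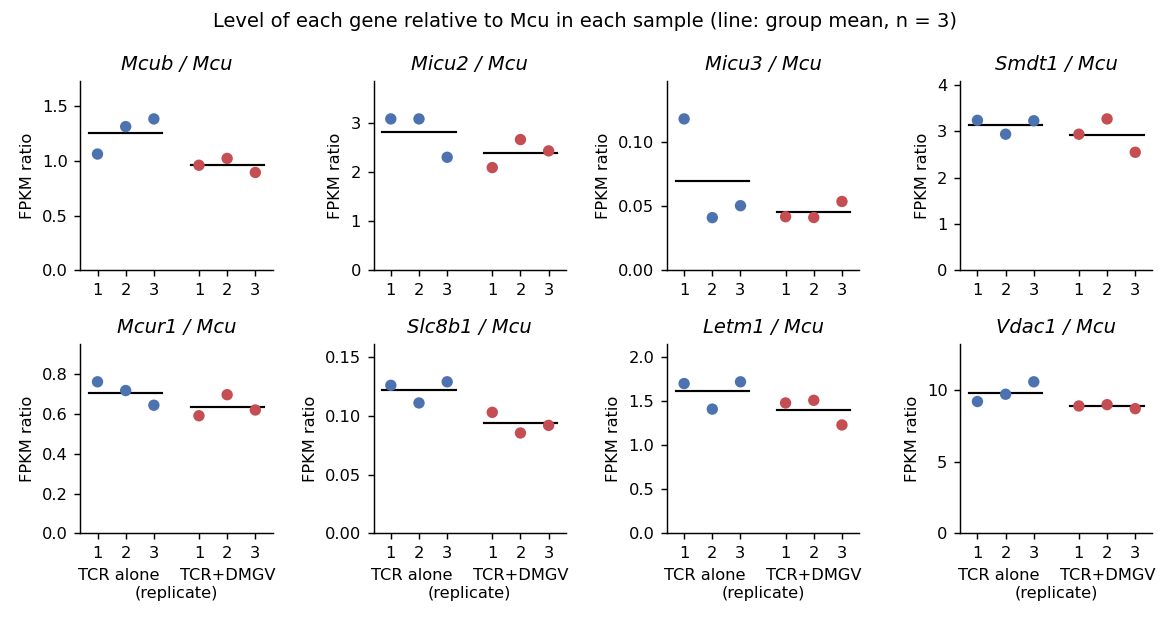
Gene FPKM of each partner divided by the gene FPKM of Mcu in the same sample (no unit, vertical axes from 0), with the group mean as a line (n = 3). For Mcub, Slc8b1 and Vdac1 all TCR+DMGV points lie below all TCR alone points, and in the other 5 panels the groups overlap.

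The transcript table listed 43 transcripts of the 9 genes, of which 40 had a count and 23 passed the filter on low counts. No member transcript passed the threshold, nor did any of the 38401 transcripts tested (0.0%). At an unadjusted p under 0.05 there was 1 member transcript of 23, against 3.22% of all transcripts tested (1235). In 5 genes 1 transcript held nearly all counts. Mcu-202 held 98.4% to 99.5% of the counts of Mcu in each sample, and Micu2-201, Mcur1-201 and Vdac1-202 held at least 97.3% of those of their genes. Letm1-201 held 95.5% to 99.5%. The leading transcript of Smdt1, Smdt1-201, held 85.3% to 94.2%, and most of the rest was Smdt1-204, a transcript annotated as a target of nonsense-mediated decay, with a mean of 8.65%.

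Mcub was counted as a mixture. Mcub-201, with 8 exons and 1035 coding bases, held 81.6%, 87.6% and 91.5% of what was counted for the gene in the TCR alone samples and 86.9%, 81.7% and 87.5% in TCR+DMGV. Mcub-204, with 7 exons and 756 coding bases, held 18.4%, 11.1% and 7.87% and 11.7%, 14.3% and 12.5% in the same order. The groups overlapped for both shares. The log2 fold change was -0.30 for Mcub-201 (standard error 0.24; edgeR, unadjusted p = 0.267) and -0.14 for Mcub-204 (standard error 0.33; edgeR, unadjusted p = 0.694), a difference smaller than these errors.

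The high Micu3 count of TCR alone replicate 1 came from a transcript that was counted in no other sample. Micu3-203 held 164 of the 252 counts of that sample (65.1%) and 0 counts in the other 5. It starts at position 40354303 of chromosome 8, inside the gene, and has 8 exons and 785 coding bases against 15 exons and 1569 coding bases for Micu3-201. The full-length Micu3-201 was counted 87, 97 and 101 times in TCR alone and 101, 101 and 132 times in TCR+DMGV. On this transcript TCR alone replicate 1 was no longer the highest sample, and the log2 fold change was 0.16 (standard error 0.30; edgeR, unadjusted p = 0.611), against -0.45 for the gene. Micu3-202, annotated as a retained intron, had shares of 0.397%, 5.83% and 21.7% in TCR alone and 19.8%, 9.01% and 7.04% in TCR+DMGV. Its share was highest in the samples that stood apart on the first component. Behind these shares were few counts, 1, 6 and 28 in TCR alone and 25, 10 and 10 in TCR+DMGV.

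Slc8b1-201, which codes for the full exchanger, had shares of 89.5%, 97.5% and 100% of the gene in TCR alone and 99.4%, 78.6% and 97.1% in TCR+DMGV. In TCR+DMGV replicate 2, Slc8b1-203 held 19.1%, a transcript with 0 counts in the other 5 samples. That sample also had the lowest CPM of the gene.

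The member transcript at an unadjusted p under 0.05 was Letm1-203, a short form of 2 exons with 141 coding bases, named here because of its value. Its counts were 15, 14 and 37 in TCR alone and 4, 7 and 4 in TCR+DMGV, with no overlap of the groups. Its log2 fold change was -2.18 (standard error 0.59; edgeR, unadjusted p = 0.0113, adjusted p over all transcripts 1.00). It held 0.218% of the counts of Letm1 on average, so it had little part in the level of the gene.

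**Figure D5:**
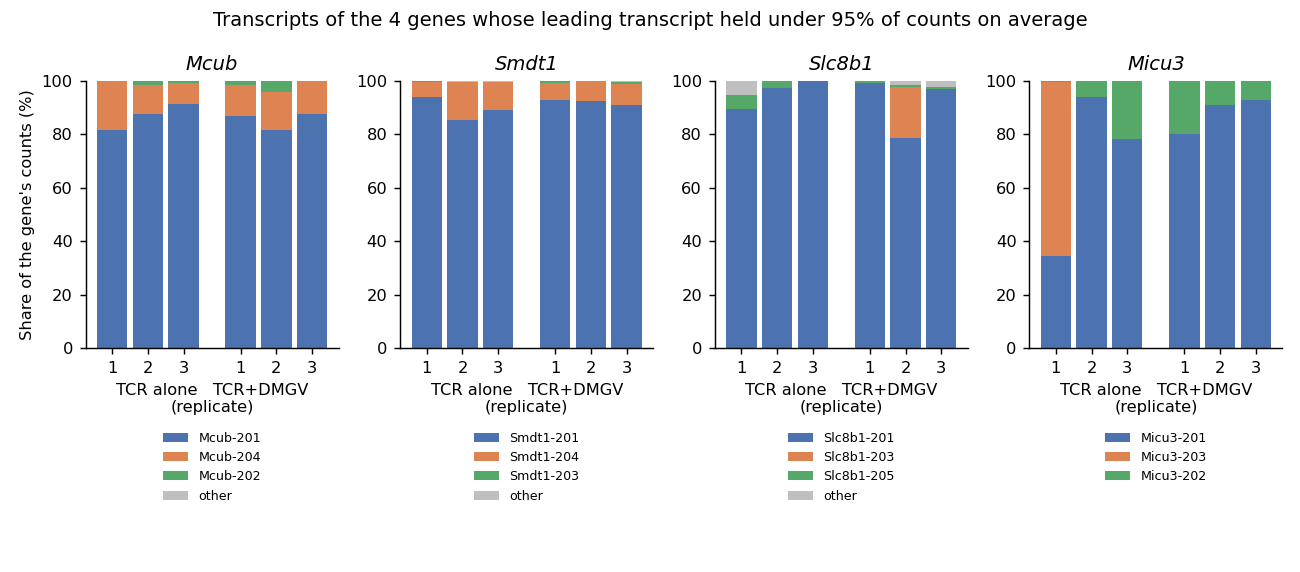
Share of each gene's counts (%) held by its transcripts in each sample, for the 4 genes whose leading transcript held the lowest mean share. In the Micu3 panel TCR alone replicate 1 is set apart by Micu3-203 (65.1%), and in the Slc8b1 panel TCR+DMGV replicate 2 by Slc8b1-203 (19.1%).

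Other genes of mitochondrial calcium handling were read from a list of 57, of which 53 passed the filter on low counts. Of these, 33 were higher and 20 lower in TCR+DMGV, with a median log2 fold change of 0.01, and none passed the threshold. In 3 of the 53 the groups did not overlap, and 1 of the 53 had an unadjusted p under 0.05, both below the shares of all genes tested (8.86% and 3.19%), so the values that follow describe single genes. The gene at an unadjusted p under 0.05 was Slc25a12, the calcium-regulated aspartate/glutamate carrier of the inner membrane, at 86.1, 90.3 and 82.1 CPM in TCR alone and 100, 103 and 96.7 CPM in TCR+DMGV. All TCR+DMGV samples were higher, with a log2 fold change of 0.22 (standard error 0.08, 95% interval 0.04 to 0.39; edgeR, unadjusted p = 0.0245, adjusted p = 0.9995). Its paralogue Slc25a13 lay the other way, at 41.0, 49.3 and 40.0 CPM in TCR alone and 39.5, 38 and 38.8 CPM in TCR+DMGV. The groups did not overlap here either, and the log2 fold change was -0.16 (standard error 0.11; edgeR, unadjusted p = 0.165). Bcap31, an endoplasmic reticulum protein at contacts with mitochondria, was the third gene without overlap, chosen after its values were seen, at 120, 123 and 125 CPM in TCR alone and 139, 129 and 129 CPM in TCR+DMGV. Phb, which encodes the membrane scaffold prohibitin, had 290, 334 and 365 CPM in TCR alone and 362, 362 and 370 CPM in TCR+DMGV, with overlap (log2 fold change 0.15, standard error 0.09; edgeR, unadjusted p = 0.164).

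By group of function, the other uniporter subunits and regulators (11 of 12 tested) had 7 genes higher and 4 lower with a median log2 fold change of 0.04. Other exchangers and outer membrane channels had 3 higher and 2 lower among the 5 of 8 tested, with a median of 0.01. The genes of contact sites between endoplasmic reticulum and mitochondria had 9 higher and 6 lower, with a median of 0.01. Those tied to the permeability transition pore had 5 higher and 1 lower, with a median of 0.07. The calcium-regulated enzymes and carriers of the matrix had 9 higher and 7 lower, with a median of 0.02. The medians of these groups lay within 0.08 of 0, as did that of all genes.

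The genes whose CPM ran most like that of Mcu over the 6 samples were Rrad, a small GTPase known to regulate voltage-gated calcium channels (Pearson r = 0.996, mean 4.71 CPM), Gtf2b, a general transcription factor (r = 0.985, mean 60.0 CPM), and Gm24494 (r = 0.979, mean 0.468 CPM). They are the first of 14785 genes ranked by a correlation over 6 samples that share their scaling, and the values are a description. Among the members, the correlation with Mcu was highest for Vdac1 (r = 0.482) and lowest for Micu3 (r = -0.611), with Smdt1 at 0.02 and Mcub at -0.11.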

How the data were processed

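Total RNA of 6 samples was sequenced on Illumina after mRNA library preparation. The authors filtered reads with SOAPnuke, mapped them with HISAT2 2.0.4 (submitters' processing notes) and computed expression with StringTie. As deposited by the authors, the counts are unnormalized whole numbers for genes and transcripts, and the FPKM values deposited beside them are scaled to length and depth. How counts were made, and whether strand was used, is not given in the sources used here, and the counts exceed the read depth the labels state. The labels list mm9, but the identifiers are Ensembl's of GRCm38, and 99.7% of genes and 99.6% of transcripts matched GENCODE M21, the source of coordinates. The transcript counts of each of the 9 genes summed to its gene count.

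Samples were grouped by the labels. The members and gene lists were chosen with earlier results of these data known. All members are named. Of other listed genes, those at an unadjusted p under 0.05 and the 3 of smallest p are named, of transcripts those with a mean share of at least 10%, and the 3 genes most correlated with Mcu in log2 CPM (prior count 2). Other names were chosen after the values were seen.

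The test was edgeR 4.0.16's two-sided quasi-likelihood test (R 4.3.3) with TMM normalization, filterByExpr and Benjamini-Hochberg adjustment over all 14786 genes or 38401 transcripts, at 0.05. Single values were compared by exact permutation tests (scipy 1.17.1). If the samples did not come from separate mice, p-values measure technical spread only. Alternatives were DESeq2 1.42.0, other scalings and filters, summed transcript counts, limma 3.58.1 on log2(FPKM + 1) and log2(FPKM + 0.1), a replicate block, a term for both samples that stood apart, both left out, and each sample left out. Ratios to Mcu, also from CPM, and levels and ratios from summed transcript FPKM were added after the data were seen. Similar sequences were searched with blastn 2.17.0. Scripts were tested on simulated counts. Of 200 genes given a log2 fold change of 1 or -1, 45.5% passed the threshold, so many such changes were missed. Of the genes called there, 11.7% were unchanged ones. With no gene changed, 0 were called. No samples were counted as duplicates, as all pairs differed by more than sampling noise. Summaries used Python 3.11.15, pandas 2.3.3 and matplotlib 3.10.9.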

Additional observations from a re-analysis of the deposited data

How the results depend on the processing

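No member passed the threshold in any setting, and the lowest adjusted p of any was 0.649. The number of genes past the threshold, 2 in edgeR, was 14 with DESeq2, 1 with library size alone, 1 without a filter, 0 with limma on log2(FPKM + 1) or log2(FPKM + 0.1), 12 without both samples that stood apart, 471 at an unadjusted p under 0.05, and 0 to 5 with 1 sample left out. With the replicate number as a block it was 0. Deviations from the group means of samples with the same number correlated at r = -0.154, 0.121 and -0.148. The highest value of any pair was 0.31, for both samples that stood apart. With 3 samples per group, these values cannot show whether samples with the same number came from the same mouse. The block changed no call of a member. For transcripts the count of 0 became 1 without TCR alone replicate 3 and was 0 in the other settings, the block included.

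Mcu (0.08 to 0.17), Mcub (-0.42 to -0.16), Micu2 (-0.21 to -0.02) and Slc8b1 (-0.34 to -0.13) kept the sign of the log2 fold change in every setting. It turned with 1 sample left out in Micu3 (-0.7019 to 0.06886), Smdt1 (-0.02179 to 0.1034), Mcur1 (-0.0617 to 0.007216), Letm1 (-0.1394 to 0.01515) and Vdac1 (-0.121 to 0.06178), and for Vdac1 also without both samples that stood apart (0.03118). With 1 sample left out, the difference in share of the gene's counts, TCR+DMGV minus TCR alone in percentage points, turned for Mcu-202 (-0.138 to 0.399), Mcub-201 (-4.17 to 0.743), Mcub-204 (-1.90 to 3.35), Micu2-201 (-0.0236 to 0.483), Micu3-202 (-1.80 to 8.85), Mcur1-201 (-0.519 to 0.0487), Slc8b1-201 (-7.79 to 2.61) and Vdac1-202 (-0.655 to 0.298), and that of Micu3-203 ran from -32.5 to 0.0. From transcript FPKM in place of counts, the difference in share of Letm1-201 was -7.76, against -1.14. Letm1-206, of 747 bases, held a mean of 1.66% of the counts of Letm1. Its transcript FPKM was 0, 4.46 and 0 in TCR alone and 6.53, 4.14 and 1.88 in TCR+DMGV. Ratios to Mcu turned in no setting, but all of them contain the Mcu value, whose own log2 fold change kept its sign. With summed transcript FPKM the ratios of the groups overlapped for Mcub and Vdac1. The cause of these shifts was not tested. Slc8b1 and Micu3 had the fewest counts of the members, at 103 to 252 per sample. In TCR alone replicate 1, 164 of the 252 counts of Micu3 were of Micu3-203. The part of depth in the precision of these genes was not tested.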
